A study of Mus musculus with 6 samples.

Results

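Immediate early genes and heat shock genes answer a stimulus or a stress within minutes, so their level in a tissue can reflect both the state of the animal's cells and the handling of the tissue. The set described here holds 30 genes of the 30406 that both gene annotations of the study list: 7 subunits and partners of the transcription factor AP-1 (Fos, Fosb, Fosl2, Jun, Junb, Jund and Atf3), 9 transcription factors of the EGR, NR4A and KLF families (Egr1, Egr2, Egr3, Nr4a1, Nr4a2, Nr4a3, Klf2, Klf4 and Klf6), 6 feedback and early response genes (Ier2, Ier3, Ier5, Dusp1, Btg2 and Zfp36) and 8 heat shock proteins and chaperones (Hspa1a, Hspa1b, Hsp90aa1, Hspb1, Dnajb1, Hsph1, Hspa8 and Hspa5). The members were taken as a fixed list of symbols, and all 30 were found in every library. The list was chosen by measured values of these libraries, a higher UMI level in knockout than in wild-type chromaffin nuclei, so that contrast is given below as a description with no test, and the tests are those in the other cell types of the same glands. The question put to the data was in which cell types, and in which libraries, these genes were high.

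Nuclei came from adrenals of C57BL/6 J mice, all female and 10 to 11 months old, and were sequenced in droplets from the 3' end, so that every captured transcript carries a unique molecular identifier (UMI). There were 2 libraries labelled knockout (KO) and 3 labelled wild type (WT) for Tmem127, a gene for an endosomal and lysosomal membrane protein whose human counterpart is a tumour suppressor in phaeochromocytoma, the tumour of chromaffin cells. Each library was made from a pair of whole glands, chopped in a detergent buffer on ice and sorted on the DNA stain DAPI. Replicate numbers were given here in sample order within each group and are not part of the labels. The labels of the sixth library contradict each other (WT by its title, KO by its genotype entry); it is called the unassigned library, and its values stand apart from both groups.

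The files held 21724 barcodes, of which 20991 nuclei were kept. Depth differed between libraries: the median was 5419 and 1289 UMIs per barcode for the KO libraries (replicates 1 and 2, always in this order), 7675, 1783 and 4114.5 for the WT libraries (replicates 1, 2 and 3, likewise), and 4434 for the unassigned library, and any pair of libraries shared 2 to 9 barcodes. Levels are given as CPM, the usual scaling of a gene's UMIs by all UMIs of the same library and cell class. Tmem127 was not lower in the KO libraries: in the 9 cell classes together it stood at 46.1 and 45.3 CPM in KO against 37.9, 38.0 and 35.8 CPM in WT. The deleted part of the gene is not named in the labels, and 3' tags outside a deleted part check nothing, so KO and WT are used here as the labels of the libraries. KO replicate 2 stood apart as the shallowest library, and the mitochondrial transcripts summed to 4924 CPM in its chromaffin-like nuclei against 265 to 1504 CPM in WT. The abundant transcript Gm42418 was above every WT library in both KO libraries in all 9 classes, at 12281 and 9746 CPM in KO chromaffin-like nuclei against 5371, 5539 and 2709 CPM in WT. The part of depth in the results below was not tested; the fits were repeated without Gm42418 and the mitochondrial genes.

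Immediate early genes are transcribed without the need for new protein, through factors such as SRF and CREB that are already bound at short, open promoters. In chromaffin cells, nerve input and calcium entry drive Fos and Egr1. In the steroid-producing cortex, ACTH and angiotensin II drive the NR4A nuclear receptors, which bind promoters of steroid-synthesis genes. Heat shock genes answer unfolded protein through the factor HSF1, while Hspa5 belongs to the unfolded protein response of the endoplasmic reticulum.

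Promoters are shown for 7 of the early members that the results turn on and whose promoter holds the letters TGACG, to make these inputs visible; that of Jund, another of these members, holds none. Each stretch is the 160 bases before the annotated start in RefSeq, build GRCm38.p6, and capitals mark TGACG, the core of the cyclic AMP response element that CREB binds, on either strand (CGTCA when read on the printed strand).
Fos: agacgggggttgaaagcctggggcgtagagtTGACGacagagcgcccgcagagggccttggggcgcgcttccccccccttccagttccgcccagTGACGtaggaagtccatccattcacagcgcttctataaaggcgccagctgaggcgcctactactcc
Fosb: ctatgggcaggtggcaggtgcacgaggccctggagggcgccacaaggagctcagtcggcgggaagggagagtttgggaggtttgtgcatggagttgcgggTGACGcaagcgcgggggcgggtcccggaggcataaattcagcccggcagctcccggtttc
Junb: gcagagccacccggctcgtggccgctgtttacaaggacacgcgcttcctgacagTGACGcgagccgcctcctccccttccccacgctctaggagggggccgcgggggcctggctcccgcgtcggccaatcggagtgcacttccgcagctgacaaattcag
Nr4a1: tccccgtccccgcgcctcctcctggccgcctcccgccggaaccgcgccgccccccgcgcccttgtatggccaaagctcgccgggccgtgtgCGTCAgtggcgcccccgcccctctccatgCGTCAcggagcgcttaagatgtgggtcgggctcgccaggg
Nr4a2: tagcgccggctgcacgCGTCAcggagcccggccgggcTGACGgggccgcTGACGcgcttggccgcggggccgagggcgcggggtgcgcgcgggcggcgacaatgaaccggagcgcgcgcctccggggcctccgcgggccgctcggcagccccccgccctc
Nr4a3: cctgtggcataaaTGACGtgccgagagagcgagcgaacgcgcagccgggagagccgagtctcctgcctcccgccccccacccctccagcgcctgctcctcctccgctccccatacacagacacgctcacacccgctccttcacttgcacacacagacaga
Dusp1: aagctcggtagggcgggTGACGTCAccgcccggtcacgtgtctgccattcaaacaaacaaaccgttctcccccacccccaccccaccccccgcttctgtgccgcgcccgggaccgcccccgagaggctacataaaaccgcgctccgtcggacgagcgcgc
They lie at chr12:85473730-85473889 (plus strand), chr7:19310046-19310205 (minus), chr8:84978749-84978908 (minus), chr15:101266686-101266845 (plus), chr2:57124004-57124163 (minus), chr4:48045145-48045304 (plus) and chr17:26508473-26508632 (minus). Dusp1 holds the whole palindrome TGACGTCA, and Nr4a2 holds the core 3 times in the stretch shown. For the heat shock members the stretch of Hspa1a is shown, with capitals for the letters GAANNTTC or TTCNNGAA, the core of the element that HSF1 binds.
Hspa1a: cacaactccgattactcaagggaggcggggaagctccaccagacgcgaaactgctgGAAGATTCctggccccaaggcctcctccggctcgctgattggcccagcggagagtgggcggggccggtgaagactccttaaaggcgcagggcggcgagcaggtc
It lies at chr17:34972157-34972316 (minus strand).

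RefSeq gave a promoter for 25 members, 19 of the early genes and 6 of the heat shock genes. In the 250 bases before the start, searched on both strands, TGACG was found in 11 of 19 early members (57.9%) and in 17.9% of all 27025 promoters. The palindrome TGACGTCA, which contains the core on either strand, was in 2 of 19 (Btg2 and Dusp1) against 1.62%. The heat shock element was in 4 of 6 heat shock members (Hspb1, Hsph1, Hspa1a and Hspa1b) against 12.9%, and the letters CCAAT in 5 of 6 against 34.5%. The EGR site (GCGGGGGCG or GCGTGGGCG) was in 6 of 19 early members against 3.05%, the TATA box (TATAAA) in 2 of 19 (Nr4a2 and Fos) against 13%, the AP-1 site (TGANTCA) in 0 of 19 against 6.87% and the CArG box that SRF binds in 1 of 19 (Zfp36) against 1.40%. Early members' promoters are rich in the dinucleotide CG, with a median of 21 against 6 in all promoters, and TGACG holds a CG. A match is a description of letters in this window and not a shown binding site. The members are also short genes, with a median span of 5243 bases against 17441 for protein-coding genes. No source used here says whether reads in introns were counted.

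Cells were grouped without the use of the members or of the genes of their pathways. The 9 classes with enough nuclei in every library were 7 named from markers, among them chromaffin-like, and clusters 3 and 12, which took no name. Th, which encodes the enzyme that starts catecholamine synthesis and marks chromaffin cells, stood in the other classes at 0.94% to 5.35% of its level in chromaffin-like nuclei of the same library. Free RNA in the droplets can give such a level, but the source was not tested. The range is a scale for genes of chromaffin cells and can differ for genes of other cells. Cluster 3 had Cyp11b1, the enzyme for the last step of corticosterone synthesis, at 64.8% to 74.2% of the level in zona fasciculata-like nuclei. On the same measure Cyp11b1 reached 5.74% in capsule or fibroblast-like and 5.68% in endothelial-like nuclei, both in KO replicate 1. Every library had at least 56 nuclei in each of the 9 classes described, and the chromaffin-like class had 242 and 257 KO nuclei, 283, 219 and 177 WT nuclei and 263 of the unassigned library.

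In the WT glands the members were not spread evenly over cell types. The rankings below are among the 9 classes only. In the smaller Schwann or sustentacular-like class, Egr1 was at 137 CPM (14 UMIs) and Fos at 29.4 CPM (3 UMIs) in WT replicate 3. Klf2 and Klf4, transcription factors of the flow-sensing endothelium, were highest in endothelial-like nuclei in 6 of 6 libraries, with WT means of 87.3 ± 29.1 and 52.7 ± 7.72 CPM (SD, n = 3). Egr1, a zinc finger transcription factor, was highest in chromaffin-like nuclei in 6 of 6 libraries, at 67.7, 93.4 and 65.9 CPM in WT. Fosl2, an AP-1 subunit of the Fos family, was highest in zona fasciculata-like nuclei in 6 of 6 libraries, with a WT mean of 253 ± 49.5 CPM (SD, n = 3).
Klf6, Zfp36 (an RNA-binding protein that speeds mRNA decay) and Atf3 were highest in macrophage-like nuclei in 6 of 6 libraries, and Klf6 had a WT mean of 143 ± 17.1 CPM there (SD, n = 3). Nr4a3, an orphan nuclear receptor, was at 146, 154 and 132 CPM in WT zona glomerulosa-like nuclei and at 2.04, 25.2 and 4.63 CPM in WT chromaffin-like nuclei, so the 2 classes did not overlap. Fos, the AP-1 subunit most used as a marker of recent activity, was highest in chromaffin-like nuclei in WT replicates 1 and 3 and in macrophage-like nuclei in WT replicate 2, so no single class led. Fosb, Egr2, Hspa1a and Hspa1b were near 0 in the WT libraries, at most 7.74 CPM in any of the 9 classes.

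**Figure D1:**
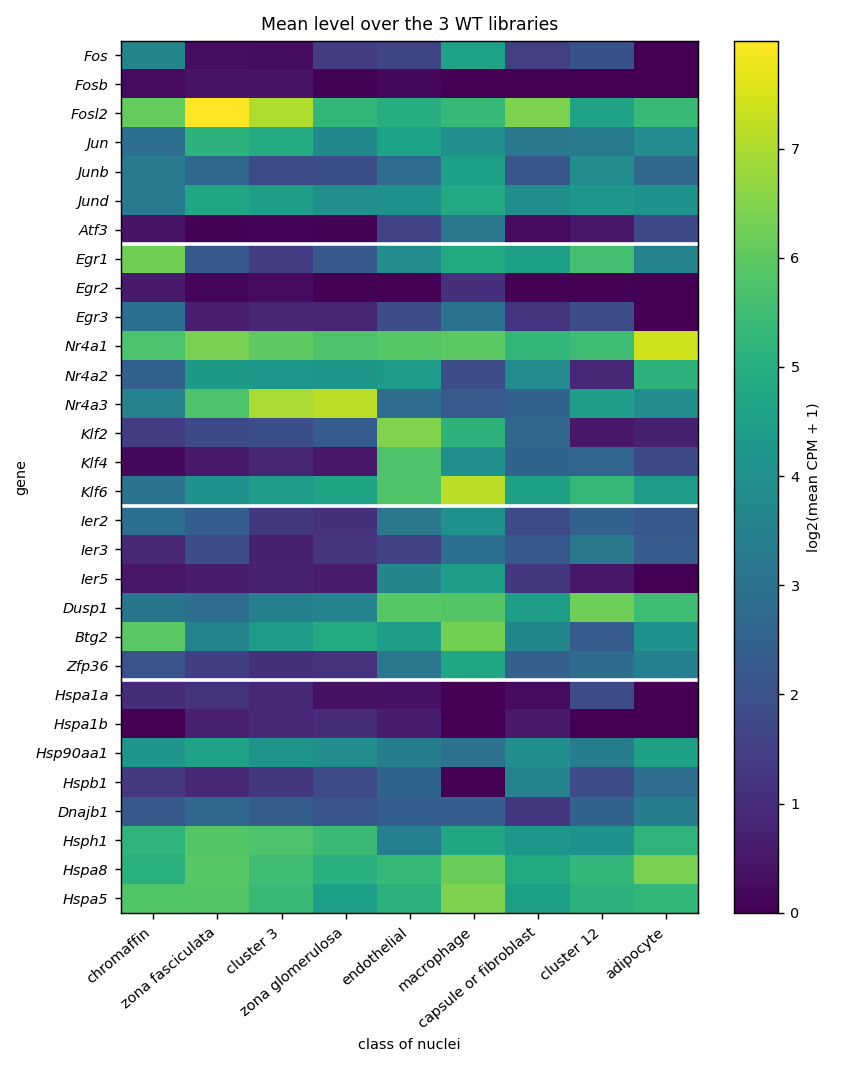
Mean level of each member over the 3 WT libraries, as log2(mean CPM + 1), with genes in rows by role (white lines part the roles) and classes of nuclei in columns. Klf2 and Klf4 are bright in endothelial-like nuclei, Klf6 in macrophage-like nuclei, Fosl2 in zona fasciculata-like nuclei, and Egr1 in chromaffin-like nuclei; genes should not be compared with each other, since tags are not corrected for capture.

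In chromaffin-like nuclei, where the list drew attention, both KO libraries had more Fos, Junb, Jund, Egr1 and Dusp1 than any WT library. Fos stood at 77.4 and 118 CPM in KO replicate 1 and KO replicate 2, against 20.4, 4.20 and 9.78 CPM in WT. Junb, another AP-1 subunit, was at 43.9 and 41.7 CPM in KO against 9.54, 8.39 and 7.72 CPM in WT. The levels of both genes thus lay apart between the groups, and for Junb the KO libraries were nearly equal.
Egr1 was at 148 and 431 CPM in KO against 67.7, 93.4 and 65.9 CPM in WT. Dusp1, a phosphatase that switches off MAP kinases, had 22.2 and 41.7 CPM in KO against 6.13, 7.34 and 9.27 CPM in WT. Jund had 18.1 and 40.3 CPM against 5.00, 9.44 and 12.4 CPM. For these 3 genes both KO libraries lay above WT, with KO replicate 2 the higher.
Jun was at 12.1 and 10.1 CPM in KO against 5.68, 6.29 and 7.72 CPM in WT, a narrower gap at low counts. Btg2, an antiproliferative protein, was at 87.5 and 239 CPM against 70.2, 39.9 and 71.0 CPM, with KO replicate 1 close to WT. Hspa8, the constitutive HSP70 of the cytosol, had 41.1 and 140 CPM against 22.9, 37.8 and 38.6 CPM, with KO replicate 1 again near the WT range.

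Other members were above every WT library in KO replicate 2 alone. Nr4a1 stood at 331 CPM in KO replicate 2 but at 16.1 CPM in KO replicate 1, below the 21.1, 107 and 28.3 CPM of WT. Nr4a2 was at 6.85 and 30.2 CPM in KO against 1.36, 5.24 and 7.21 CPM in WT, and Nr4a3 at 4.44 and 41.7 CPM against 2.04, 25.2 and 4.63 CPM. In all 3 receptor genes KO replicate 1 lay inside the WT range or below it. Against WT replicate 1 alone, counted with the same annotation, its difference in log2(CPM + 1) was -0.37 for Nr4a1, 1.73 for Nr4a2 and 0.84 for Nr4a3.
Egr3 had 2.02 and 50.3 CPM in KO against 1.36, 11.5 and 6.69 CPM in WT. Fosl2 had 52.8 and 302 CPM in KO against 38.8, 127 and 36.0 CPM in WT. Fosb, at 0.403 and 27.3 CPM in KO against at most 0.515 CPM in WT, showed the same split between the KO libraries.

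Klf6 was at 10.9 and 5.75 CPM in KO against 9.99, 6.29 and 6.18 CPM in WT chromaffin-like nuclei, with overlapping groups. Hsp90aa1, the inducible HSP90, was at 26.6 and 41.7 CPM against 12.3, 22 and 17.5 CPM. Hsph1, a nucleotide exchange factor for HSP70, was at 33.5 and 25.9 CPM against 31.6, 38.8 and 38.1 CPM, and Hspa5 at 64.1 and 74.8 CPM against 55.4, 69.2 and 40.2 CPM. The last 2 chaperones overlapped between the groups. The inducible HSP70 genes Hspa1a and Hspa1b, near-identical copies whose reads cannot be told apart with confidence, reached at most 2.10 CPM in any grouped library. The remaining members (Atf3, Egr2, Klf2, Klf4, Ier2, Ier3, Ier5, Zfp36, Hspb1 and Dnajb1) lay between 0 and 30.2 CPM, with the highest values, Dnajb1 at 30.2, Zfp36 at 27.3 and Ier2 at 18.7 CPM, in KO replicate 2.

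Of 20 members with enough UMIs in chromaffin-like nuclei (a mean of 10 over the libraries), 11 were above every WT library in KO replicate 1, where 34.2% of 10721 genes were, and 18 in KO replicate 2, against 26.9%. Both KO libraries were above every WT library for 10 of the 20, against 12.1% of genes; nothing is read from these counts, since this contrast chose the list. The fitted log2 folds (KO over WT, edgeR with a term for the gene annotation, 19 members that passed the filter on low counts) were 2.79 ± 0.40 for Fos, 2.25 ± 0.28 for Junb, 2.04 ± 0.33 for Dusp1 and 1.85 ± 0.28 for Egr1 (SE). Without KO replicate 2 they were 1.87 for Fos, 2.15 for Junb, 1.80 for Dusp1 and 1.07 for Egr1. Nr4a1 then went from 1.39 to -0.44, Egr3 from 2.03 to 0.50 and Btg2 from 1.26 to 0.27. Nr4a2 did not fall, at 2.22 with all libraries and 2.24 without KO replicate 2. Without KO replicate 1, Fos was at 3.90 and Nr4a1 at 2.34.
In bulk sums of this kind, more nuclei with a gene and more RNA per nucleus cannot be told apart, so shares of nuclei were also counted at an equal depth of 1000 UMIs a nucleus, reached by thinning. Fos was seen in 6.28% of thinned chromaffin-like nuclei of KO replicate 1 (95% exact binomial interval 3.55 to 10.1) and in 13.2% of KO replicate 2 (9.01 to 18.4), against 2.51% (1.01 to 5.10), 0.469% (0.0119 to 2.59) and 0.568% (0.0144 to 3.12) in WT. The unthinned shares were 23.6% and 22.2% in KO against 13.1%, 1.37% and 6.78% in WT, and thinning left out 3 and 37 nuclei in KO and 4, 6 and 1 in WT. Junb was seen in 4.18% (2.02 to 7.56) and 1.82% (0.498 to 4.59) of thinned chromaffin-like nuclei of the KO libraries, against 1.43% (0.392 to 3.63), 0.939% (0.114 to 3.35) and 1.14% (0.138 to 4.04) in WT. Both KO shares were above every WT share, as the levels were, KO replicate 2 only narrowly, but the intervals overlapped. The unthinned shares of Junb, from libraries of unequal depth, overlapped at 21.9% and 8.17% in KO against 9.19%, 2.74% and 6.78% in WT. For Fos in zona fasciculata-like nuclei the thinned share was 0.285% and 3.42% in KO against at most 0.157% in WT. Unthinned it was 0.994% and 4.27% in KO against at most 0.339% in WT, and the median depth of WT replicate 1 was 14902 UMIs in chromaffin-like and 11918 in zona fasciculata-like nuclei, against 2299 and 1595 in KO replicate 2. The intervals cover counting error only.

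The chromaffin-like class was made of 2 clusters that differed in Pnmt, which encodes the enzyme that makes adrenaline from noradrenaline. Cluster 7 had Pnmt at 222 to 783 CPM over the 6 libraries and held 138 to 205 nuclei per library, and cluster 14 had it at 5.13 to 42.6 CPM and held 39 to 93 nuclei. In cluster 7, Fos was at 108 and 137 CPM in KO against 28.3, 5.45 and 11.8 CPM in WT, and Egr1 at 207 and 474 CPM against 92.1, 114 and 78.0 CPM. Dusp1 there was at 26.8 and 52.3 CPM in KO against 4.94, 9.53 and 9.28 CPM in WT.
In cluster 14 KO replicate 1 did not stand above WT for Fos or Egr1. Fos was at 2.76 and 42.6 CPM in KO against 2.93, 0 and 0 CPM in WT, and Egr1 at 4.14 and 263 CPM against 13.2, 22.9 and 6.12 CPM. For these 2 genes KO replicate 2 was high in both clusters, while KO replicate 1 was high in the Pnmt-rich one. On few UMIs, Junb in cluster 14 was at 6.90 and 7.11 CPM in KO against 0.733, 0 and 0 CPM in WT. Dusp1 was at 11.0 and 0 CPM in KO against 8.80, 0 and 9.17 CPM in WT. KO replicate 2 had only 140739 UMIs in this cluster, where 1 UMI is 7.11 CPM, so its 0 cannot show whether Dusp1 was above WT there. The summed level of the 22 early members was 676 and 2034 CPM in KO against 336, 524 and 324 CPM in WT in cluster 7, and 160 and 739 CPM against 123, 256 and 135 CPM in cluster 14. The difference between the clusters was not tested, since the contrast chose the list.

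**Figure D2:**
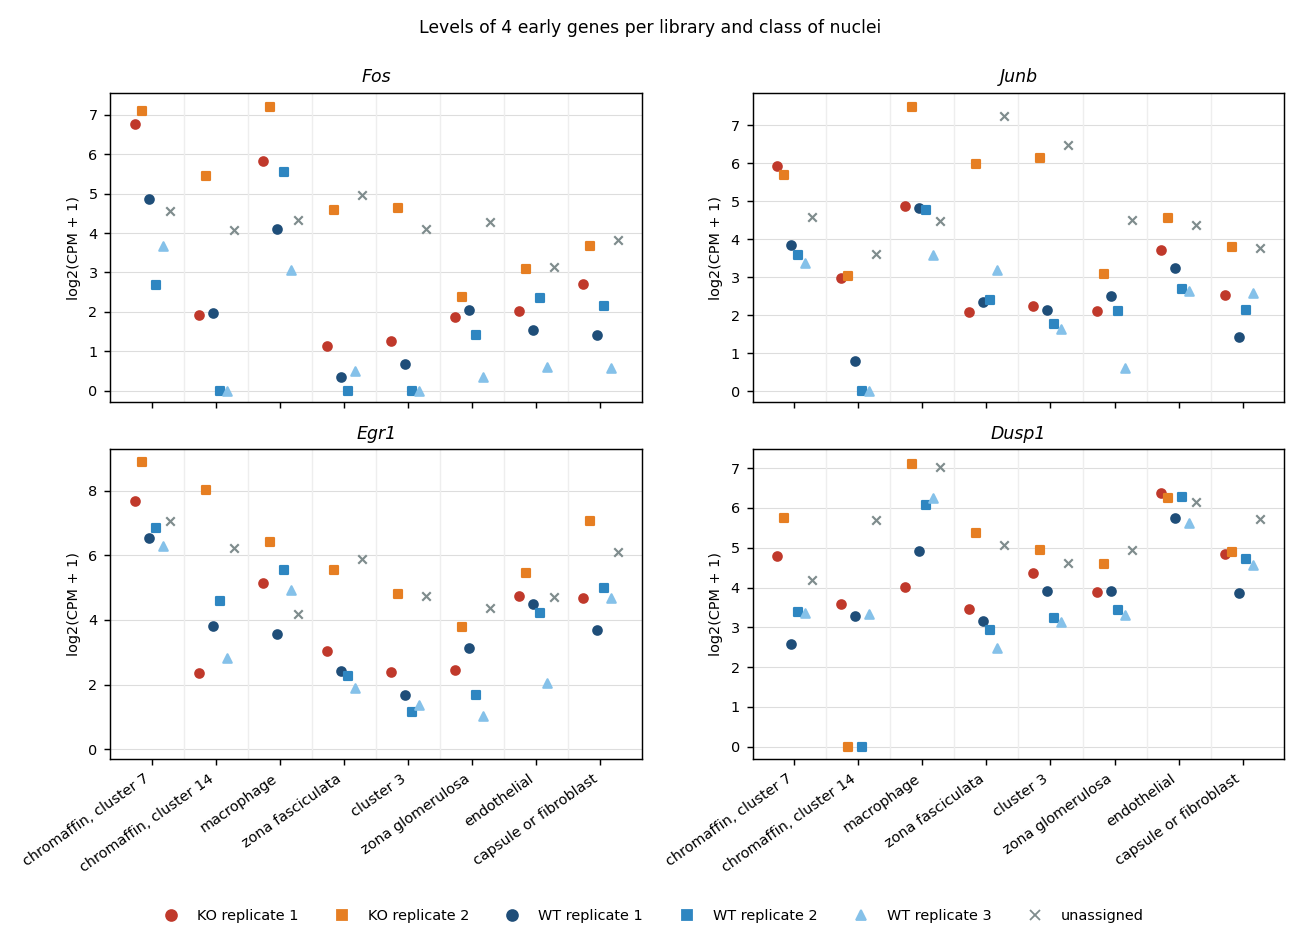
Level of Fos, Junb, Egr1 and Dusp1 as log2(CPM + 1) in each of the 6 libraries (1 point per library) for 2 chromaffin-like clusters and 6 other classes of nuclei. KO replicate 1 stands above WT in chromaffin cluster 7 (Fos at 108 CPM against at most 28.3), while KO replicate 2 and the unassigned library are also high in cells of the cortex.

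Macrophage markers summed to 21.0 and 38.8 CPM in KO chromaffin-like nuclei and to 18.6, 31.5 and 13.4 CPM in WT, and endothelial markers to 270 and 296 CPM against 237, 375 and 232 CPM, so the groups overlapped in both marker lists, none of whose genes was at 0 in all libraries. The chromaffin markers themselves summed to 10142 and 11836 CPM in KO against 10339, 11404 and 10334 CPM in WT.

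In zona fasciculata-like nuclei the KO libraries did not behave alike. In these nuclei, of the cells that make corticosterone, Fos was at 1.2 and 22.9 CPM in KO against 0.261, 0 and 0.414 CPM in WT. Junb had 3.25 and 62.5 CPM in KO against 4.09, 4.26 and 8.07 CPM, and Egr1 had 7.19 and 45.8 CPM against 4.36, 3.79 and 2.69 CPM. KO replicate 2 was above every WT library for these 3 genes, while KO replicate 1 was above every WT library for Fos and Egr1 and below every one for Junb.
Nr4a1 stood at 14.4 and 394 CPM in KO against 64.4, 102 and 74.3 CPM in WT, so that KO replicate 1 was the lowest library and KO replicate 2 the highest of the 5. Nr4a2 was at 4.79 and 129 CPM in KO against 5.84, 18.5 and 34.6 CPM in WT, with the same order. Dusp1 was at 9.92 and 40.6 CPM against 7.93, 6.63 and 4.55 CPM.
In endothelial-like nuclei both KO libraries lay above WT in the summed level of the 22 early members, at 631 and 727 CPM against 540, 582 and 336 CPM.
In KO replicate 2 Fos in zona fasciculata-like nuclei was at 19.4% of its chromaffin-like level, while Th was at 3.50%.

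KO replicate 2 was above every WT library for 19 of 24 members in zona fasciculata-like nuclei (25.1% of genes), 13 of 21 in zona glomerulosa-like nuclei (30.1%), 13 of 16 in capsule or fibroblast-like nuclei (25.2%), 11 of 15 in macrophage-like nuclei (24.4%) and 10 of 22 in endothelial-like nuclei (27.4%). KO replicate 1 was above every WT library for 10 of 24 (33.1%), 8 of 21 (33.5%), 6 of 16 (32.2%), 4 of 15 (23.7%) and 11 of 22 (30.6%) in the same classes. In all nuclei other than chromaffin-like, the counts were 23 of 29 in KO replicate 2 (30.7%) and 13 of 29 in KO replicate 1 (34.6%), and 11 of 29 in both (12.1%). The share of members above WT was thus larger than that of all genes in KO replicate 2 in each of these classes. In KO replicate 1 the share of members lay closer to that of all genes than in KO replicate 2, except in endothelial-like nuclei. It was near the share of all genes in macrophage-like, zona glomerulosa-like and capsule or fibroblast-like nuclei, so nothing about the members is read from those counts. These counts, like the tests below, come from the libraries whose chromaffin nuclei chose the list. They are therefore not independent of that choice.

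**Figure D3:**
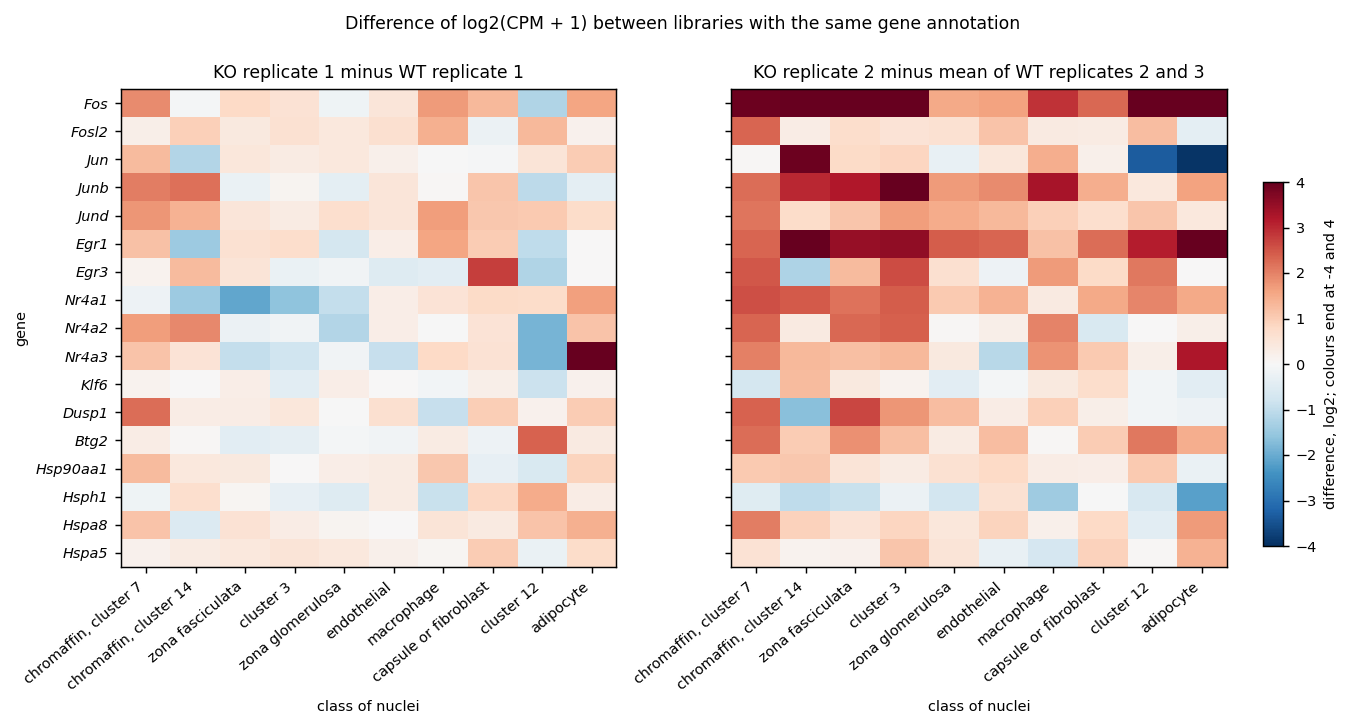
Difference of log2(CPM + 1) between libraries counted with the same gene annotation, for the 17 members described in every library (rows) and 10 classes or clusters of nuclei (columns): KO replicate 1 minus WT replicate 1 at left, KO replicate 2 minus the mean of WT replicates 2 and 3 at right. At left Fos, Junb and Dusp1 are red in chromaffin cluster 7 (Fos 1.87 in the chromaffin-like class), and at right Fos, Junb and Egr1 are also red in zona fasciculata-like nuclei (Fos 3.99 in the chromaffin-like class).

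Testing KO against WT over these 5 libraries (edgeR's quasi-likelihood test, Benjamini-Hochberg adjustment over all genes of the class, two-sided, threshold 0.05) called Egr1 in 2 classes and no other member. In capsule or fibroblast-like nuclei Egr1 was at 24.7 and 132 CPM in KO against 11.8, 30.6 and 24.9 CPM in WT, so KO replicate 1 lay inside the WT range. The log2 fold was 1.87 ± 0.30 (SE, adjusted p = 0.0493), 1 of 15 members tested, where 0.0388% of 10320 genes were called. Without KO replicate 2 the fold was 0.98 (adjusted p = 0.9996 by edgeR), and over the alternatives the adjusted p ran from 4.54e-07 to 0.9996.
In adipocyte-like nuclei Egr1 was at 0 and 307 CPM in KO against 0, 27.0 and 5.78 CPM in WT. Its log2 fold was 4.42 ± 0.69 (SE, adjusted p = 0.0379), 1 of 13 members tested, with 0.238% of 6710 genes called; DESeq2 called Nr4a3 there in its place. Here KO replicate 1 had 0 UMIs of Egr1, which allows up to 6.00 CPM, and without KO replicate 2 or without WT replicate 2 Egr1 was below the filter on low counts; where it had a value, its adjusted p by edgeR or DESeq2 ran from 2.83e-09 to 0.999 over the alternatives. Egr1 in adipocyte-like nuclei of KO replicate 2 was at 71.1% of its chromaffin-like level, against 4.71% for Th and 5.32% for Chga, a granule protein of chromaffin cells.

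No member was called in the other classes, and members at an unadjusted p under 0.05 are given below beside the share of all genes of the class at that level; in the classes above they were 5 of 13 in adipocyte-like (7.59% of genes) and 5 of 15 in capsule or fibroblast-like nuclei (6.53%). In zona fasciculata-like nuclei 0 of 20 members and 0.0% of 12408 genes were called, Nr4a2, Jund, Junb, Dusp1 and Egr1 (5 members) reached an unadjusted p under 0.05 (2.51% of genes did), and no member was called by DESeq2. In zona glomerulosa-like nuclei, the aldosterone-producing cells, 0 of 19 members were called against 0.332% of 11749 genes. An unadjusted p under 0.05 was reached by 4 members (11.3% of genes). Nr4a2 (log2 fold -0.79) and Hsph1 (-0.63) were lower in KO, and Fosl2 (0.50) and Jund (1.10) were higher. Fos there was at 2.65 and 4.22 CPM in KO against 3.12, 1.65 and 0.26 CPM in WT, overlapping.
In macrophage-like nuclei Fos was at 56.0 and 145 CPM in KO against 16.3, 46.1 and 7.38 CPM in WT, both KO libraries above all WT. Its log2 fold was 2.40 ± 0.53 (SE) with an adjusted p of 0.0899 by edgeR, so it missed the threshold; 0 of 18 members were called against 0.0834% of 7198 genes, and 5 had an unadjusted p under 0.05 (5.2% of genes). In endothelial-like nuclei 0 of 22 members were called against 0.00949% of 10532 genes, with 4 members under an unadjusted 0.05 (3.3% of genes).
Cluster 3 gave 0 of 13 members (0.0% of 10508 genes), with 4 members and 4.11% of genes under an unadjusted 0.05, and cluster 12 gave 0 of 5 (0.0% of 5164 genes), with 2 members and 3.14% of genes. DESeq2 called no member in these 6 classes. Over all nuclei other than chromaffin-like, 0 of 28 members and 0.0% of 16159 genes were called by edgeR; an unadjusted p under 0.05 was reached by 9 members (6.77% of genes), and Fos was called by DESeq2. There Fos was at 3.63 and 20.5 CPM in KO against 1.89, 2.35 and 0.795 CPM in WT, a log2 fold of 2.52 ± 0.69 (SE, adjusted p = 0.57 by edgeR).

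**Figure D4:**
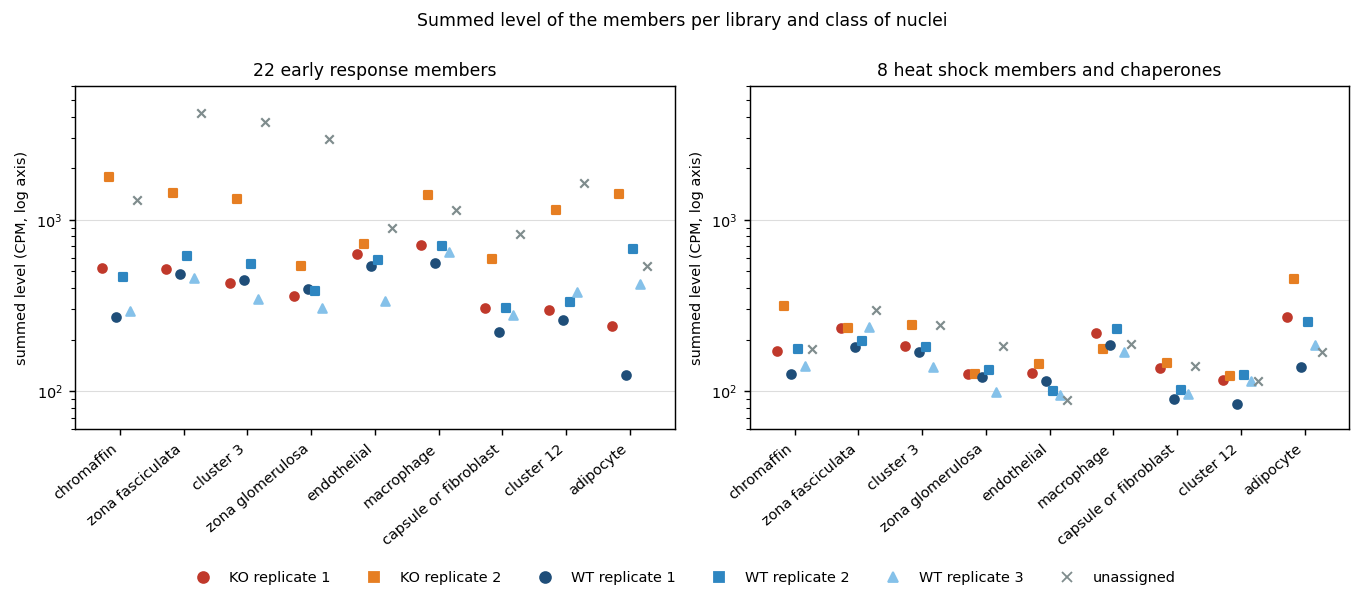
Summed level of the 22 early members (left) and the 8 heat shock members (right) in CPM on a log axis, for each library (1 point per library) and class of nuclei. The early sums run from 125 to 4179 CPM with KO replicate 2 and the unassigned library highest in the cortex, while the heat shock sums lie between 84.5 and 449 CPM.

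Whether a class differed from the rest of the same glands was tested as the difference between its KO against WT fold and that of the other nuclei, chromaffin-like nuclei left out. This called 2 members. Nr4a2 in zona glomerulosa-like nuclei was at 9.07 and 15.8 CPM in KO against 21.7, 12.6 and 18.5 CPM in WT, overlapping groups, and the difference from the other nuclei was -1.47 ± 0.29 on the log2 scale (SE, adjusted p = 0.0396 by edgeR; 0.254% of 14185 genes). Nr4a3 in adipocyte-like nuclei was at 16.0 and 165 CPM in KO against 0, 34.7 and 7.70 CPM in WT. Its difference was 2.98 ± 0.57 (SE, adjusted p = 0.000103 by edgeR, where 0.912% of 12503 genes were called). That p-value rests on a spread shared by all genes and not on the spread of Nr4a3 itself. For Nr4a3 the groups overlapped, and WT replicate 1, the library with the same annotation as KO replicate 1, had 0 UMIs; without KO replicate 2 the difference was 10.96, and without WT replicate 1 the call ended (adjusted p = 0.098 by edgeR; 6.92e-05 to 1.0 over the alternatives). It also ended when the unassigned library joined the KO group, where the difference was 0.97 (adjusted p = 1.0 by edgeR). The call of Nr4a2 ended without KO replicate 1, KO replicate 2 or WT replicate 1 (adjusted p = 0.18, 0.276 and 0.196 by edgeR; 0.000382 to 1.0 over the alternatives).
No member was called for this difference in capsule or fibroblast-like nuclei (0.176% of genes), cluster 12 (0.328%), cluster 3 (0.179%), endothelial-like nuclei (0.167%), macrophage-like nuclei (0.241%) or zona fasciculata-like nuclei (0.0%). At an unadjusted p under 0.05 these differences had, in the same order, 3 of 25 members (6.5% of genes), 2 of 24 (3.94%), 3 of 25 (4.81%), 1 of 25 (4.24%), 0 of 25 (4.4%) and 5 of 27 (3.42%). DESeq2 called 0 members in each of the 8 differences. For chromaffin-like nuclei against the rest the same difference is a description only: it was 0.51 ± 0.46 for Fos, 0.04 ± 0.27 for Egr1, 0.89 ± 0.48 for Junb, 1.36 ± 0.34 for Dusp1 and 1.51 ± 0.47 for Nr4a2 (log2, SE).

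The unassigned library had the highest levels of the set, and they lay in the cortex. In zona fasciculata-like nuclei Nr4a2 was at 1105 CPM, where the 5 grouped libraries had 4.79 to 129 CPM, and Nr4a3 was at 982 CPM against 26.4 to 111 CPM. In zona glomerulosa-like nuclei Nr4a1 was at 751 CPM against 31.9 to 96.0 CPM, Nr4a2 at 652 against 9.07 to 21.7 CPM and Nr4a3 at 1011 against 132 to 186 CPM. The NR4A genes of this library did not overlap with any grouped library in these cortical classes.
Fosb, an AP-1 subunit, was at 64.6 CPM in its zona fasciculata-like nuclei against 0 to 3.12 CPM, and Junb at 151 CPM against 3.25 to 62.5 CPM. In its chromaffin-like nuclei the picture differed: Fos was at 21.4, Junb at 20.4 and Egr1 at 120 CPM, below both KO libraries and above the 3 WT libraries for each gene. Egr3 there was at 136 CPM and Nr4a3 at 201 CPM, above the 1.36 to 50.3 and 2.04 to 41.7 CPM of the grouped libraries.

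In this library 18 of 24 members in zona fasciculata-like nuclei were above all 5 grouped libraries (9.21% of genes), as were 15 of 21 in zona glomerulosa-like nuclei (14.3%), 3 of 20 in chromaffin-like nuclei (9.22%) and 19 of 29 in all nuclei other than chromaffin-like (12.1%). The summed early level was 4179 CPM in zona fasciculata-like, 3720 in cluster 3, 2957 in zona glomerulosa-like and 1299 in chromaffin-like nuclei, and 898 in endothelial-like nuclei. The steroid-producing classes were thus the highest of the library, and chromaffin-like nuclei were the highest of the named classes in KO replicate 2, at 1772 CPM against 1432 CPM for zona fasciculata-like and 536 CPM for zona glomerulosa-like nuclei. In KO replicate 1 the sums were 525, 515 and 361 CPM in the same 3 classes, and the early members were highest in macrophage-like nuclei, at 717 CPM.

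**Figure D5:**
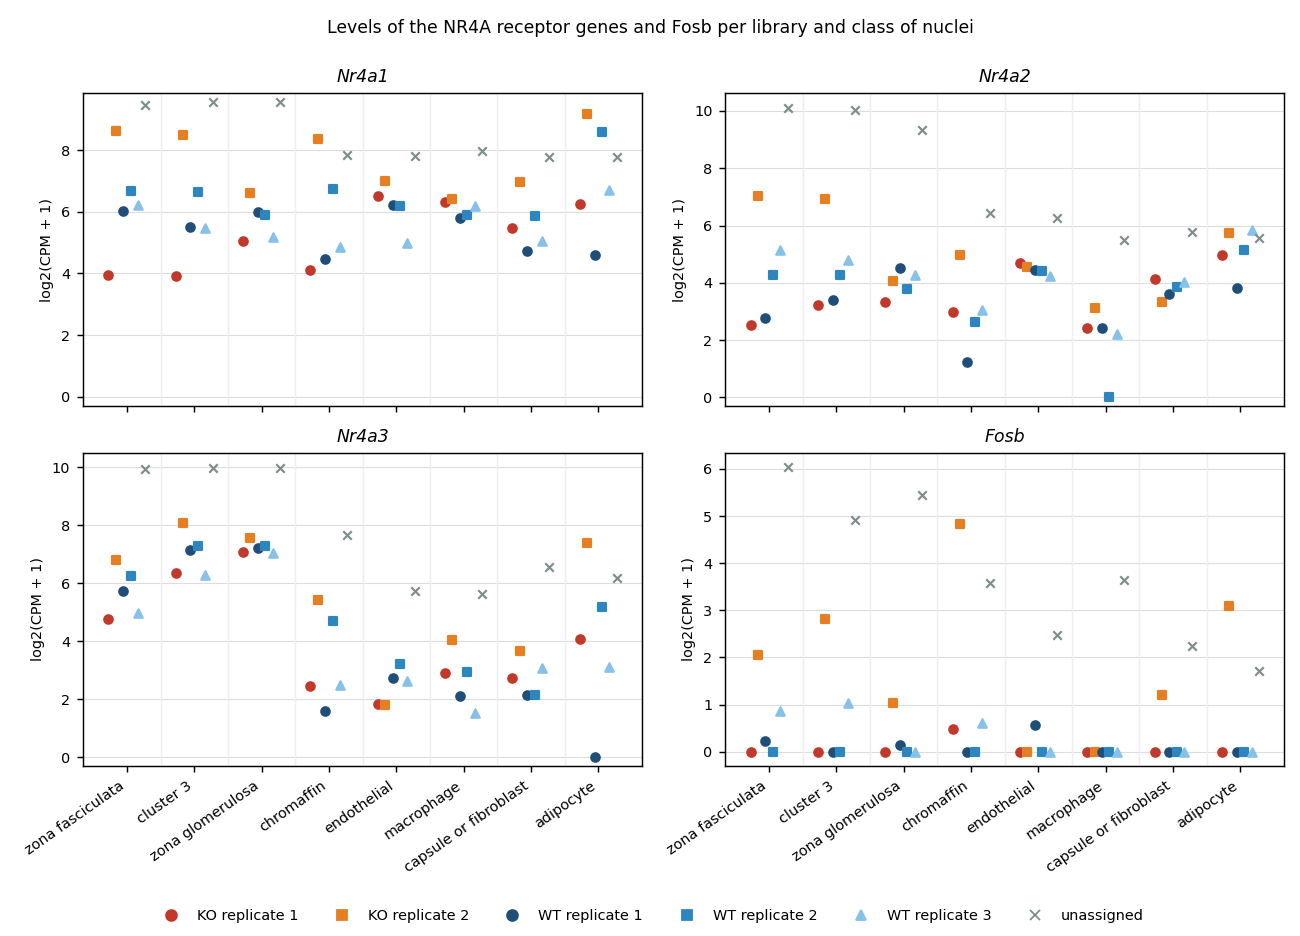
Level of Nr4a1, Nr4a2, Nr4a3 and Fosb as log2(CPM + 1) in each of the 6 libraries (1 point per library) for 8 classes of nuclei. In zona fasciculata-like, cluster 3 and zona glomerulosa-like nuclei the unassigned library lies above the 5 others for these genes (Nr4a2 at 1105 CPM in zona fasciculata-like nuclei).

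The heat shock members and chaperones were described in the same way. Their summed level in zona fasciculata-like nuclei was 234 and 232 CPM for KO, 182, 197 and 236 CPM for WT and 298 CPM for the unassigned library, and in chromaffin-like nuclei 172 and 314 CPM for KO, 126, 176 and 141 CPM for WT and 176 CPM for the unassigned library. Both KO sums were above every WT sum in adipocyte-like nuclei (272 and 449 CPM against 138, 255 and 185 CPM), capsule or fibroblast-like nuclei (136 and 145 against 89.8, 102 and 96.1), endothelial-like nuclei (128 and 143 against 115, 101 and 94.6), cluster 3 (184 and 243 against 168, 181 and 138) and all nuclei other than chromaffin-like (177 and 180 against 147, 160 and 149). The groups overlapped in zona fasciculata-like, macrophage-like (218 and 176 against 185, 230 and 170), zona glomerulosa-like (126 and 126 against 122, 133 and 98.9) and cluster 12 nuclei (116 and 123 against 84.5, 124 and 114). Hsph1 was at 59.9 and 30.2 CPM in KO zona fasciculata-like nuclei against 56.5, 57.8 and 56.1 CPM in WT, so KO replicate 2, the library with the highest early members of the 5, had the lowest Hsph1. Hspa8 was at 73.4 and 92.7 CPM against 49.0, 56.4 and 72.0 CPM there, both KO libraries just above WT, with a log2 fold of 0.49 ± 0.24 (SE) and an adjusted p of 0.995 by edgeR.
Hspa1a and Hspa1b, the most inducible of the set, were at 0.838 and 0.257 CPM and at 0.559 and 0.771 CPM in all other nuclei of the KO libraries, and in WT at 0.452 to 0.881 and 0.536 to 0.881 CPM. The unassigned library had them at 3.55 and 4.34 CPM. Hsp90aa1 was at 20.4 and 22.1 CPM in KO against 16.7, 18.7 and 15.4 CPM in WT over the same nuclei, and Hspa5 at 51.0 and 49.8 CPM against 37.6, 36.9 and 43.4 CPM.

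Related genes outside the set were counted from 3 further lists, which were chosen with earlier results of these data known. Over all nuclei other than chromaffin-like, 6.77% of all genes were at an unadjusted p under 0.05 by edgeR. Of 36 other immediate early genes, 33 were tested over all nuclei other than chromaffin-like; 24 had a fold above 0, with a median log2 fold of 0.30 against 0.01 for all genes, and edgeR called 0 of 33, with 5 at an unadjusted p under 0.05. Of 30 other chaperones, 29 were tested, 7 had a fold above 0 and the median was -0.23, with 0 called by edgeR and 5 at an unadjusted p under 0.05. Of 19 upstream factors (SRF, CREB, MEF2 and HSF families and their partners), 5 had a fold above 0, the median was -0.11, and edgeR called 0, with 1 at an unadjusted p under 0.05.
In chromaffin-like nuclei, whose contrast chose the set, the counts are a description and nothing is read from them. There 18 of 20 other early genes had a fold above 0 (median 0.43). So did 8 of 26 other chaperones (median -0.08) and 6 of 19 upstream factors (median -0.06). The median of all genes was 0.01. Over the 17 tested comparisons (8 classes, their 8 differences and all nuclei other than chromaffin-like), 3 of 1163 tests of listed genes were called, on 2 genes: Mef2c, a calcium-responsive transcription factor, fell in zona glomerulosa-like nuclei (log2 fold -0.96 ± 0.17 SE, adjusted p = 0.0361 by edgeR; 0.332% of all genes were called there) and its difference from the other nuclei was -0.76 ± 0.15 (adjusted p = 0.0396 by edgeR; 0.254% of genes). Pim1, a kinase gene, had a difference of 1.43 ± 0.33 in adipocyte-like nuclei against the others (adjusted p = 0.00396 by edgeR; 0.912% of genes).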

How the data were processed

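Single-nucleus RNA libraries of 6 mouse adrenal pairs were used as the deposited matrices of raw UMI counts per gene and barcode. Per the submitters' processing notes, Cell Ranger, Seurat and mm10 were used; the deposited gene lists show that KO replicate 1 and WT replicate 1 were counted with another annotation than the other libraries, and 30406 genes are in both. Strand and intron settings are not given in the sources used here.

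Nuclei with at least 300 genes and under 5% mitochondrial UMIs were kept (48 low-quality barcodes and 685 called doublets were removed). Nuclei were clustered with scanpy 1.11.5 (2000 variable genes without the members and their pathway genes, 30 components, 20 neighbours, Leiden resolution 0.8; 25 clusters) and named from marker lists. UMIs were summed per library and class. KO was tested against WT in each class with at least 50 nuclei in every grouped library, chromaffin-like nuclei excepted, by edgeR 4.0.16's quasi-likelihood test with TMM factors, filterByExpr and a term for the annotation, with Benjamini-Hochberg adjustment over all genes. The unassigned library entered no test. Scripts were tested on simulated data. Shares used 1000 UMIs per nucleus.

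A member was described in every library where its mean was at least 20 CPM in chromaffin-like or all nuclei, or where it passed a test; other members are given by ranges and counts. The members, pathway lists and markers were chosen with earlier results of these data known. The labels do not say that the libraries of a group came from separate animals, so p-values measure the spread between these libraries, which may be technical. Alternatives were DESeq2 1.42.0 and its size factors, no filter, each library left out, the unassigned library in either group, no annotation term, doublets kept, deeper nuclei, other clusterings, and Gm42418 and mitochondrial genes left out.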

Additional observations from a re-analysis of the deposited data

Results flagged for a closer look

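The KO against WT fold of Nr4a3 in adipocyte-like nuclei differed from that in the other nuclei by 2.98 on the log2 scale, and that of Nr4a2 in zona glomerulosa-like nuclei by -1.47, each by an edgeR test of the difference itself. Leaving out KO replicate 1, KO replicate 2 or WT replicate 1 ended the call of Nr4a2, leaving out WT replicate 1 or adding the unassigned library to the KO group (difference 0.97) ended that of Nr4a3, and the adipocyte-like class had 56 to 103 nuclei per library.

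The unassigned library, which no test used, was over 4 times the highest grouped library for 5 members in all nuclei other than chromaffin-like, as were 13 of 15738 genes (0.0826%). The filter on low UMIs behind these counts included this library. Fosb was at 32.9 CPM, Nr4a2 at 594 CPM, Nr4a3 at 657 CPM, Hspa1a at 3.55 CPM and Hspa1b at 4.34 CPM. The genotype of this library is given both ways in its labels, so these values belong to no group.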

How the results depend on the processing

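Among the described chromaffin-like folds, 14 of 19 were above 0 in every setting. Nothing is read from this count, since the contrast chose the list. The sign changed for Nr4a1 (1.39 to -0.44) and Hsph1 (-0.22 to 0.03) without KO replicate 2, for Egr3 (2.03 to -0.16) and Nr4a3 (1.46 to -0.61) with the unassigned library in the WT group, and for Klf6 (0.02) in 7 of 17 settings, down to -0.14. The number of members called changed with several settings. For KO against WT in adipocyte-like nuclei the 1 call became 4 with no filter on low counts, 2 without Gm42418 and mitochondrial genes, and 0 when the unassigned library joined the KO or the WT group, with no annotation term or with doublets kept. In capsule or fibroblast-like nuclei the 1 call became 2 with no filter and 0 with DESeq2, with the unassigned library in either group, with no annotation term, with nuclei of at least 1000 UMIs and with members among the variable genes. With no filter, the 0 calls became 1 in cluster 3, 2 in macrophage-like, 3 in zona fasciculata-like, 1 in zona glomerulosa-like and 4 in all nuclei other than chromaffin-like. Nuclei of at least 1000 UMIs gave 1 call in macrophage-like nuclei, and DESeq2 gave 1 in all nuclei other than chromaffin-like. For the differences between classes, the 1 call in adipocyte-like nuclei became 0 with DESeq2 and with no annotation term and moved from Nr4a3 to Nr4a2 with the unassigned library in the KO group, and the 1 call in zona glomerulosa-like nuclei became 0 with DESeq2, its size factors, the unassigned library in either group, no annotation term and nuclei of at least 1000 UMIs.

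Leaving out 1 library at a time gave 0 to 4 calls in adipocyte-like, 0 to 2 in capsule or fibroblast-like, 0 to 1 in cluster 12, 0 to 3 in cluster 3, 0 to 1 in endothelial-like, 0 to 2 in macrophage-like, 0 to 3 in zona fasciculata-like nuclei and 0 to 3 in all nuclei other than chromaffin-like. For the differences it gave 0 to 2 in adipocyte-like, 0 to 1 in capsule or fibroblast-like, 0 to 1 in endothelial-like and 0 to 1 in zona glomerulosa-like nuclei. KO replicate 2 ended both Egr1 calls when left out. Leaving out WT replicate 1 gave 3 calls in zona fasciculata-like nuclei, 3 in cluster 3 and 3 in all nuclei other than chromaffin-like. With 1 KO library left, that library is assumed to vary like the others; the cause of these changes was not tested. Over all genes, the count called over these settings ran from 0 to 134 in adipocyte-like (16 as reported), 0 to 99 in capsule or fibroblast-like (4), 0 to 67 in zona fasciculata-like (0), 0 to 262 in zona glomerulosa-like (39), 0 to 50 in macrophage-like (6), 0 to 41 in endothelial-like nuclei (1) and 0 to 531 in all nuclei other than chromaffin-like (0). No paired analysis was possible because the labels carry no replicate numbers. KO replicate 2, the shallowest library, limits the low members most.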
